A study of Mus musculus with 18 samples.

Results

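Hox cluster genes are here all mouse genes with a symbol of Hoxa, Hoxb, Hoxc or Hoxd and a number. A RefSeq gene table lists 39 of them, and 33 had a probe set of their own on the array, 48 probe sets in all. The 32 probe sets of 24 genes that reached a log2 intensity of 5 in 2 or more of 18 arrays are reported, out of 18958 probe sets of 10078 genes that passed the same filter. They comprise 10 probe sets of 8 genes in the Hoxa cluster on chromosome 6, 8 of 6 genes in Hoxb on chromosome 11, 8 of 6 genes in Hoxc on chromosome 15 and 6 of 4 genes in Hoxd on chromosome 2.

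The cells were mouse embryonic fibroblasts, which are mesenchymal cells grown out of dissociated fetuses, here E12.5 to E14.5 fetuses without head, liver and blood clots. They were homozygous or heterozygous for the mutant or wild type (wt), and were left untreated or given 5 ng/mL TGF-b1 for 4 h or 24 h, with 2 arrays in each of the 9 groups. According to the series title the point mutation lies in TGFBR1, the type I receptor of TGF-b, whereas the design text speaks of a constitutively active TGFb1 mutant; only "the mutant" is used here. Untreated cells are called vehicle in the design text, with no duration. Separate cultures or fetuses are not stated for the arrays within a group. In the 6 homozygous and wt groups Xist was high and Y-linked genes were low in 1 array and the reverse in the other, so that these 2 arrays held cells of different fetuses, and in the 3 heterozygous groups, where all arrays were Xist-high, the spread behind a p-value may be technical.

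Hox genes encode homeodomain transcription factors and lie in 4 clusters, in which the order of genes along the chromosome matches the order of their expression along the body axis. Paralogues of low number are used in the hindbrain and neck, those of high number in the lumbar and tail region and in the distal limb. Fibroblasts keep much of the Hox pattern of the body position they came from. In a bulk sample of trunk and limb cells, fewer cells of one position and less RNA per cell cannot be told apart.

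The sequence upstream of a transcription start is shown for 6 Hox genes in which the 6 arrays at 4 h lay wholly outside the 6 untreated arrays, the 6 arrays at 24 h, or both. Each is 250 bases, written 5′ to 3′ on the strand of the gene and ending just before the start, from the RefSeq promoter table of build GRCm38.p6. Capitals mark matches on either strand to CAGAC, known as the SMAD box, to TGATNNAT, the composite site of Pbx and Hox proteins, to CCAAT, the site of nuclear factor Y, or to TATAAA, the TATA box. The AP-1 site, TGANTCA, was searched as well and had no match in these windows.
Hoxa2, chr6:52164832-52165081, minus strand: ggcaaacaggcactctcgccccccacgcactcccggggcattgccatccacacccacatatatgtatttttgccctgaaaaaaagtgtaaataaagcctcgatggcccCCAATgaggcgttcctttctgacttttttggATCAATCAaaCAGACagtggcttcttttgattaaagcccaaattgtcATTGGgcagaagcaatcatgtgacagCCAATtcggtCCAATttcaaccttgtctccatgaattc
Hoxa3, chr6:52213068-52213317, minus strand: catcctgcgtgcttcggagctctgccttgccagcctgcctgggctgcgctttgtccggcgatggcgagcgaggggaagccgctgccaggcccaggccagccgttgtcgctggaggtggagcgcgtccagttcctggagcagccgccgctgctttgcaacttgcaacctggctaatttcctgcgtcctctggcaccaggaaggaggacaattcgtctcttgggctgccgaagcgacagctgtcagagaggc
Hoxa5, chr6:52204588-52204837, minus strand: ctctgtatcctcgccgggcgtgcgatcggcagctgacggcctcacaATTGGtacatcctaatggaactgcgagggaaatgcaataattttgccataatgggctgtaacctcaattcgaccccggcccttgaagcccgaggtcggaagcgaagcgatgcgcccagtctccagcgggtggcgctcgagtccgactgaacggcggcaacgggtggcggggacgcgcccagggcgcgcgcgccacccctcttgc
Hoxb4, chr11:96318017-96318266, plus strand: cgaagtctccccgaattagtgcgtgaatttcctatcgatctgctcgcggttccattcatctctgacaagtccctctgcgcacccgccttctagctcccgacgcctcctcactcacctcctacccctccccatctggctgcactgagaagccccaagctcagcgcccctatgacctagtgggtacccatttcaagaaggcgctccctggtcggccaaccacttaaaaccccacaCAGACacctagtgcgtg
Hoxc4, chr15:103034145-103034394, plus strand: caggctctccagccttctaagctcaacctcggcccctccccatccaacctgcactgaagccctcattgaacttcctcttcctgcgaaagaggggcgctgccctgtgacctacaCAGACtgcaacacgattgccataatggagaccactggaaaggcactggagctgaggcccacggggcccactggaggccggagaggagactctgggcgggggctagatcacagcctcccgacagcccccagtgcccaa
Hoxd13, chr2:74667975-74668224, plus strand: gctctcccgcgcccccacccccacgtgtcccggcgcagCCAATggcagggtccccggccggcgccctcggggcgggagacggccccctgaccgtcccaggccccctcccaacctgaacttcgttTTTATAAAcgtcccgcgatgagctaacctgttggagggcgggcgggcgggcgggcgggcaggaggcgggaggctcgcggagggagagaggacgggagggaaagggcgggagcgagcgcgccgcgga

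In the Hoxa2 window, CAGAC began 101 bases and the reverse-strand match to TGATNNAT 111 bases before the start, and CCAAT was present 4 times. In Hoxb4 CAGAC began 17 bases and in Hoxc4 137 bases before the start. Hoxd13 held TATAAA on both strands, overlapping, from 124 and 126 bases before the start, and CCAAT from 212 bases before it. Hoxa5 held CCAAT on the reverse strand, 204 bases before the start, and the Hoxa3 window held none of the 5 motifs. Among 32851 promoter windows of that table, 42.2% held CAGAC, 7.68% TGATNNAT, 33.8% CCAAT, 12.4% TATAAA and 6.75% TGANTCA. Among all 24 windows that the table holds for 22 Hox genes, 13 of which are among the reported ones, 7 held CAGAC, 4 TGATNNAT, 14 CCAAT, 4 TATAAA and 1 TGANTCA. A match describes letters in 1 window, and a gene can have further starts. Hoxa4, Hoxb2, Hoxb3, Hoxb6 and Hoxc5 met the same rule on arrays and are named only.

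Genes with a probe set but none reported were Hoxa13, Hoxb1, Hoxb7, Hoxb13, Hoxc13, Hoxd1, Hoxd3, Hoxd11 and Hoxd12. Their highest values over 18 arrays ranged from 2.20 (Hoxb7) to 4.62 (Hoxa13). Genes with no probe set of their own included Hoxa6, Hoxb8, Hoxc11, Hoxc12 and Hoxd4. Of paralogue number 13, used at the tail end and in the digits, Hoxd13 was reported. In each array 39.48 to 40.33% of all probe sets lay at or above log2 5.

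Genes of anterior, middle and posterior position were measurable on the same arrays. Among untreated arrays, Hoxb3 (probe set 1456229_at), a gene of hindbrain and neck, lay at 10.28 and 10.38 log2 in homozygous, 10.33 and 9.99 in heterozygous and 10.20 and 10.06 in wt cells. Hoxc8, a gene of the mid-trunk and forelimb level, lay at 10.73 and 9.83 in homozygous, 10.55 and 10.57 in heterozygous and 10.71 and 10.19 in wt cells. Hoxd13, which shapes the digits, lay at 8.29 and 7.88 (1440626_at) in homozygous, 8.26 and 8.58 in heterozygous and 8.19 and 7.75 in wt cells. The other Hoxd13 probe set, 1422239_at, was far dimmer, at 4.99 to 5.99 in untreated arrays. It reached log2 5 in only 10 arrays of the series, so the level of Hoxd13 depends on the probe set. The values of homozygous and wt arrays overlapped for Hoxc8 and Hoxd13 but not for Hoxb3, and no difference passed the test. Fibroblast markers were measured in 14 of 14 cases, with a summed linear intensity of 275000 to 280000 in untreated homozygous, 255000 to 267000 in untreated heterozygous and 218000 to 269000 in untreated wt cells. Bright members such as Vim (15.74 to 15.91 log2 in untreated arrays) weigh most in that sum. Other members were far lower, such as Lum (6.77 to 7.78) and Pdgfra (7.06 to 7.90). Of 8 markers of cranial mesenchyme, which lacks Hox expression in the embryo, Dlx2 passed the filter and 7 did not.

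Treatment with TGF-b1 for 4 h changed a minority of Hox probe sets, more of them downward. Of the 32, 2 were higher and 5 lower in homozygous, 2 and 6 in heterozygous and 1 and 2 in wt cells, at an adjusted p under 0.05 by limma with Benjamini-Hochberg adjustment over all probe sets tested. Over all probe sets 35% were called in homozygous (17.4% higher, 17.6% lower), 26.5% in heterozygous (13.8% and 12.7%) and 17.1% in wt cells (7.64% and 9.48%). The Hox shares of 21.9%, 25% and 9.38% were near or below these. The median Hox change was -0.26 log2 in homozygous, -0.33 in heterozygous and -0.37 in wt cells, and the median over all probe sets was 0.0, 0.0 and -0.04. At 24 h against untreated cells, 1 of 32 was called in homozygous cells (6.44% of all probe sets), 0 in heterozygous (5.07%) and 0 in wt cells (9.14%). At an unadjusted p under 0.05 limma counted 4 Hox probe sets in homozygous, 7 in heterozygous and 4 in wt cells. All probe sets were not counted at that threshold, so these counts cannot be set against an overall share. Of 7 measured genes known to answer TGF-b, 4, 2 and 4 were higher at 4 h in homozygous, heterozygous and wt cells, among them the cytokine gene Il11 by 4.86 ± 0.28, 4.56 ± 0.28 and 4.19 ± 0.28 log2.

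**Figure D1:**
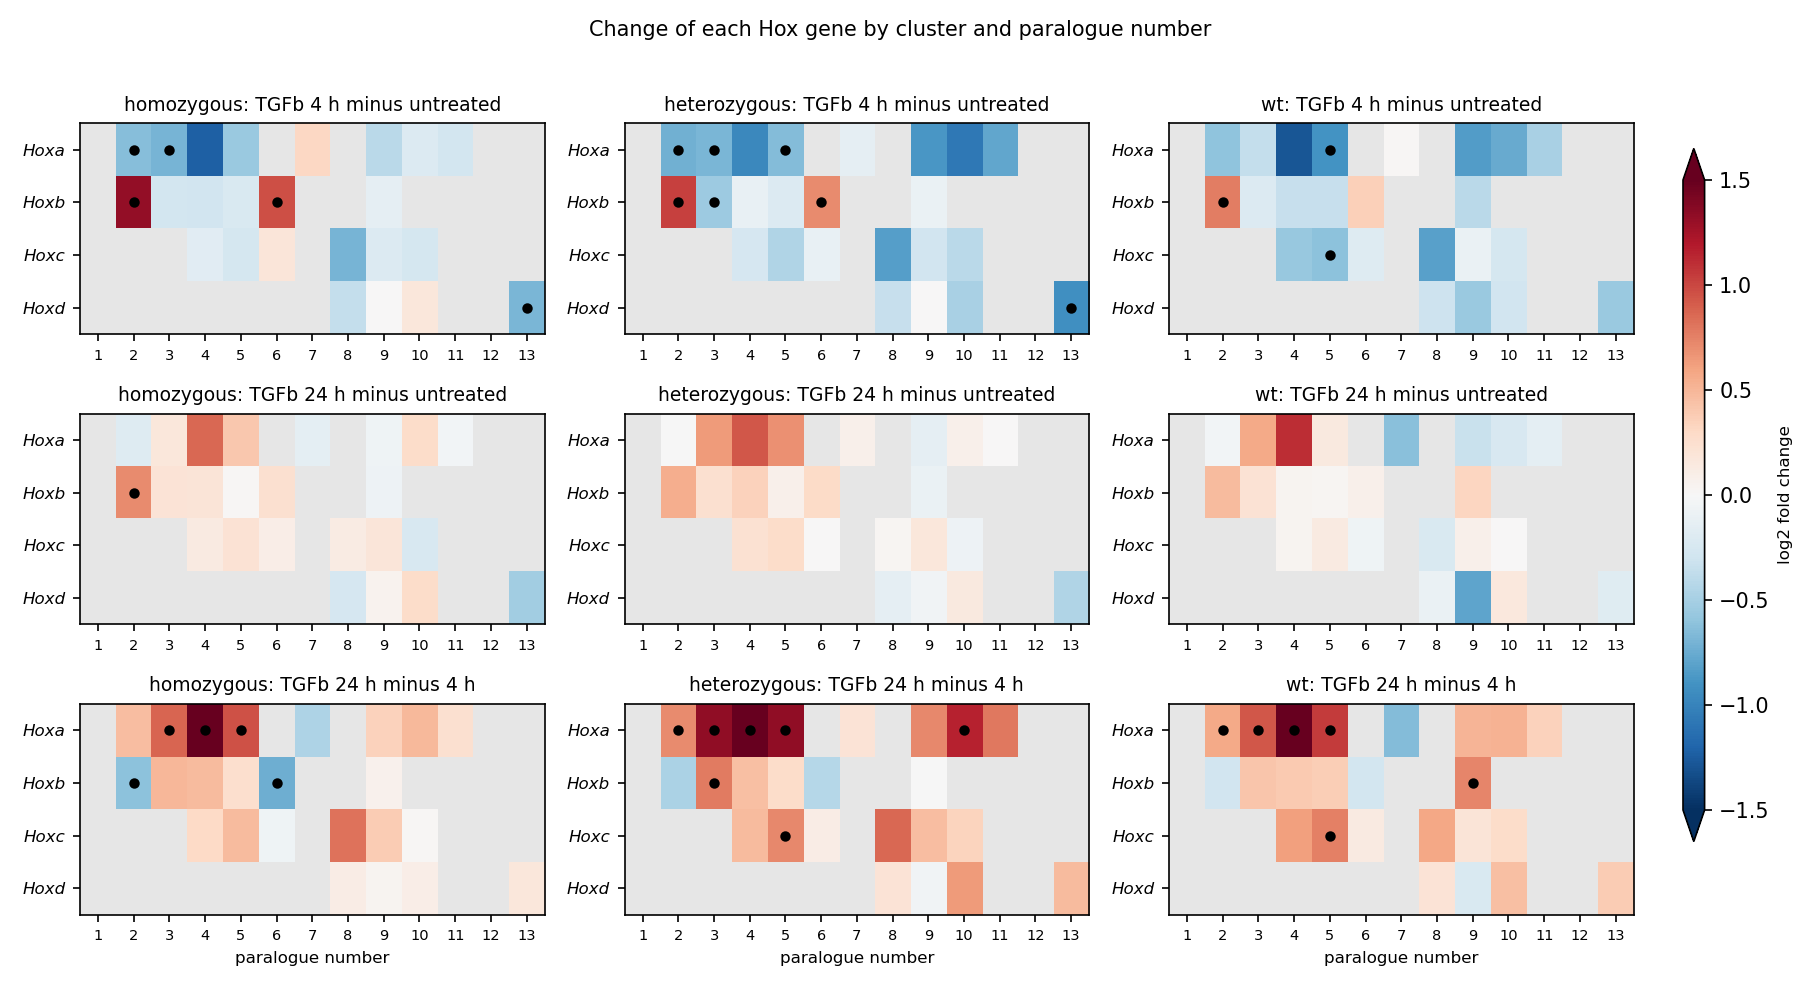
Log2 fold change (colour; red higher, blue lower) of the brightest probe set of 24 Hox genes, by cluster (rows) and paralogue number (columns), in homozygous, heterozygous and wt cells (panel columns) and 3 comparisons (panel rows). Grey marks a position with no reported gene and a black dot an adjusted p under 0.05; Hoxb2 is red with a dot in all 3 genotypes at 4 h, and Hoxa3, Hoxa4 and Hoxa5 are red with dots in all 3 at 24 h against 4 h.

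Hoxb2, a gene of the hindbrain and neck, rose at 4 h in all 3 genotypes, as 1143 of all probe sets did. In homozygous cells it lay at 9.89 and 9.99 log2 after 4 h, against 8.64 and 8.60 untreated, a rise of 1.32 ± 0.17 (standard error of the fit, 2 arrays against 2; limma adjusted p = 0.000203). In heterozygous cells it lay at 9.59 and 9.54 after 4 h, against 8.55 and 8.55 untreated, a rise of 1.02 ± 0.17 (0.00149). The wt arrays lay at 9.02 and 9.52 after 4 h, against 8.39 and 8.60 untreated, a rise of 0.77 ± 0.17 (0.0112). All 6 arrays at 4 h lay above all 6 untreated arrays. Both mutant calls held under all 29 alternatives tried. The wt call was lost with array weights, with only the 2 groups fitted, and without untreated replicate 1 or 4 h replicate 2 (adjusted p up to 0.384).

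At 24 h Hoxb2 had 9.32 and 9.33 in homozygous, 9.19 and 8.99 in heterozygous and 8.73 and 9.22 in wt cells, still above every untreated array. Its difference from untreated homozygous cells was 0.71 ± 0.17 (adjusted p = 0.0285), a call that ended when any 1 of the 4 arrays was left out (up to 0.163). From 4 h to 24 h it changed by -0.61 ± 0.17 in homozygous cells (0.0177), a call that also ended without any 1 of those 4 arrays. The homozygous response at 4 h exceeded the wt response by 0.55 ± 0.25, which did not pass (unadjusted p = 0.0453, limma adjusted p = 0.621).

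Egr2 (Krox20), a zinc-finger factor known to activate Hoxb2 in the mouse hindbrain, rose at the same time. Egr2 had 13.77 and 13.59 log2 at 4 h, against 10.74 and 10.63 in untreated homozygous cells, 13.64 and 13.46, against 11.34 and 10.71 in heterozygous cells, and 12.89 and 13.15, against 10.76 and 9.78 in wt cells. The rises were 2.99 ± 0.31, 2.53 ± 0.31 and 2.75 ± 0.31 (limma adjusted p = 4.68e-05, 0.000183 and 0.000176), and at 24 h Egr2 was still 1.66, 1.32 and 1.65 above untreated cells (0.00609, 0.0282 and 0.00597). A part of Egr2 in the Hoxb2 values was not tested.

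Hoxb6, a gene of the thoracic level, was the other Hox gene that rose at 4 h. In homozygous cells it lay at 8.64 and 8.54, against 7.56 and 7.68 untreated (0.97 ± 0.22, limma adjusted p = 0.00493), and in heterozygous cells at 8.29 and 8.44, against 7.37 and 7.94 (0.71 ± 0.22, 0.0295). The wt arrays lay at 7.95 and 8.49, against 7.80 and 7.92 (0.36 ± 0.22, 0.27), which did not pass. The 6 arrays at 4 h lay above the 6 untreated arrays, the nearest by 0.01 log2. The homozygous call held under all 28 alternatives, and the heterozygous one was lost in 5, among them leaving out untreated replicate 1 or either 4 h array (adjusted p up to 0.246). At 24 h Hoxb6 had 7.97 and 7.76 in homozygous, 7.84 and 8.04 in heterozygous and 7.71 and 8.17 in wt cells, overlapping the untreated arrays. The genes between Hoxb2 and Hoxb6 on the chromosome were not called higher: the brightest probe sets differed by -0.28, -0.54 and -0.21 for Hoxb3, -0.29, -0.11 and -0.35 for Hoxb4 and -0.23, -0.20 and -0.34 for Hoxb5 in homozygous, heterozygous and wt cells. Of the 32 Hox probe sets, 2 had all 6 arrays at 4 h above all 6 untreated arrays (6.25%, against 10.8% of all probe sets).

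Hoxa5, which patterns the neck and upper thorax, fell at 4 h and is measured by a pair of probe sets. On 1443803_x_at it had 7.72 and 8.25 after 4 h, against 8.66 and 8.69 untreated in homozygous cells (-0.69 ± 0.19, limma adjusted p = 0.0145), and 8.0 and 7.38, against 8.71 and 8.75 in heterozygous cells (-1.04 ± 0.19, 0.00223). The wt arrays had 8.26 and 8.28, against 8.66 and 8.74 (-0.43 ± 0.19, 0.134), which did not pass. On 1448926_at the change was -0.56 ± 0.21 in homozygous (0.0576), -0.65 ± 0.21 in heterozygous (0.0407) and -0.90 ± 0.21 in wt cells (0.0147). Both probe sets had all 6 arrays at 4 h below all 6 untreated arrays, but they passed in different genotypes. The heterozygous call on 1443803_x_at held under all 27 alternatives. The homozygous one ended without untreated replicate 1 or 2 or 4 h replicate 1 (adjusted p up to 0.165), the heterozygous one on 1448926_at in 13 of 29 alternatives (up to 0.228), and the wt one with array weights, with only the 2 groups fitted and without untreated or 4 h replicate 2 (up to 0.398).

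Hoxa2, the most anterior Hox gene reported in its cluster and a regulator of the second branchial arch, was dim. It had 5.15 and 4.97 after 4 h, against 5.70 and 5.70 untreated in homozygous cells (-0.64 ± 0.19, limma adjusted p = 0.0218, with 1 array under log2 5, so that the size is uncertain). In heterozygous cells it had 4.80 and 4.63, against 5.48 and 5.38, a fall of at least 1.35-fold (0.0168), since both arrays at 4 h lay under log2 5. In wt cells it had 4.97 and 4.92, against 5.28 and 5.81, at least 1.46-fold lower, at an adjusted p of 0.05, which did not pass. All 6 arrays at 4 h lay below all 6 untreated arrays. Leaving out any 1 of the 4 homozygous arrays ended that call (up to 0.122), as did leaving out either heterozygous untreated array or 4 h replicate 2 for the heterozygous call (up to 0.0946).

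Hoxa3, which acts in the pharyngeal arches and neck, had 7.24 and 7.81 after 4 h (1427433_s_at), against 8.15 and 8.29 untreated in homozygous cells (-0.70 ± 0.20, limma adjusted p = 0.0177). In heterozygous cells it had 7.19 and 7.44, against 7.84 and 8.16 (-0.69 ± 0.20, 0.025), and in wt cells 7.59 and 7.63, against 7.74 and 8.20 (-0.36 ± 0.20, 0.234). The arrays did not overlap in any of the 3 genotypes, and the wt change did not pass. The calls ended without homozygous untreated replicate 1 or 2 or 4 h replicate 1 (up to 0.195), and without heterozygous untreated replicate 2 or 4 h replicate 1 (up to 0.182). Hoxa4, a cervical gene, had 5.27 and 6.14, against 6.77 and 7.11 untreated in homozygous cells, 5.64 and 5.57, against 6.39 and 6.77 in heterozygous cells, and 6.34 and 3.95, against 6.08 and 6.77 in wt cells. Its differences of -1.23, -0.97 and -1.28 (± 0.57 each) did not pass (limma adjusted p = 0.11, 0.226 and 0.136).

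Outside Hoxa the genes that fell were Hoxd13, Hoxc5 and Hoxb3. Hoxd13 (1440626_at) had 7.51 and 7.30 after 4 h, against 8.29 and 7.88 untreated in homozygous cells (-0.68 ± 0.20, limma adjusted p = 0.0206), and 7.48 and 7.52, against 8.26 and 8.58 in heterozygous cells (-0.92 ± 0.20, 0.00616). The wt arrays had 7.16 and 7.66, against 8.19 and 7.75 (-0.56 ± 0.20, 0.0757), which did not pass. The dimmer probe set of the gene, 1422239_at, was not called at 4 h (adjusted p = 0.2, 0.189 and 0.0665). On 1440626_at all 6 arrays at 4 h lay below all 6 untreated ones, as for 4 of 32 Hox probe sets, against 12.1% of all probe sets. The heterozygous Hoxd13 call ended without untreated replicate 2 (0.0663), and the homozygous one without untreated replicate 1 or either 4 h array (up to 0.178). Hoxc5 (1439885_at), a gene of the neck and forelimb level, fell in wt cells, with 7.98 and 8.26 after 4 h, against 8.62 and 8.85 untreated (-0.62 ± 0.18, 0.0313), a call lost in 7 of 29 alternatives, among them leaving out either untreated array or 4 h replicate 1 (up to 0.428). Hoxb3 fell on 1427605_at in homozygous (-0.43 ± 0.15, 0.0409) and on 1456229_at in heterozygous cells (-0.54 ± 0.19, 0.0492), calls that 12 of 28 and 20 of 29 alternatives ended.

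These counts come from a fit without pairing, while the difference between the arrays of a group recurred over the 3 times within each genotype (correlations of 0.54 to 0.61 in homozygous and 0.23 to 0.44 in heterozygous cells; in wt cells 0.51 between 4 h and 24 h, and -0.39 and -0.58 with untreated cells, whose numbers run the other way in Xist). With a replicate block within genotype and the untreated wt numbers exchanged, a choice made with the data in view, the 4 h calls were 2 higher and 9 lower in homozygous, 2 higher and 12 lower in heterozygous and 1 and 10 in wt cells, with 42.8%, 34% and 24.5% of all probe sets called. All calls of the fit without pairing were among them. Hoxc8 and Hoxa9 then passed as lower at 4 h in all 3 genotypes (limma adjusted p = 0.000549, 0.000283 and 0.000497 for Hoxc8, 0.0243, 0.000739 and 0.00141 for Hoxa9). Hoxc8 had 9.94 and 9.23 after 4 h, against 10.73 and 9.83 untreated in homozygous cells, 9.86 and 9.61, against 10.55 and 10.57 in heterozygous cells, and 9.31 and 9.97, against 10.71 and 10.19 in wt cells. In wt cells Hoxa2 (0.0402), Hoxa4 (0.0261), Hoxa10 (0.0102) and Hoxd13 on 1440626_at (0.0199) passed as lower as well, as did Hoxa4 (0.0177) and Hoxa5 on 1448926_at (0.00999) in homozygous cells. In heterozygous cells Hoxa10, Hoxa11, Hoxc5 and Hoxc10 were added (0.0011, 0.0453, 0.0401 and 0.0352). The wt values of Hoxb6, Hoxa3 and Hoxa5 on 1443803_x_at did not pass with the block either (0.15, 0.104 and 0.111).

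**Figure D2:**
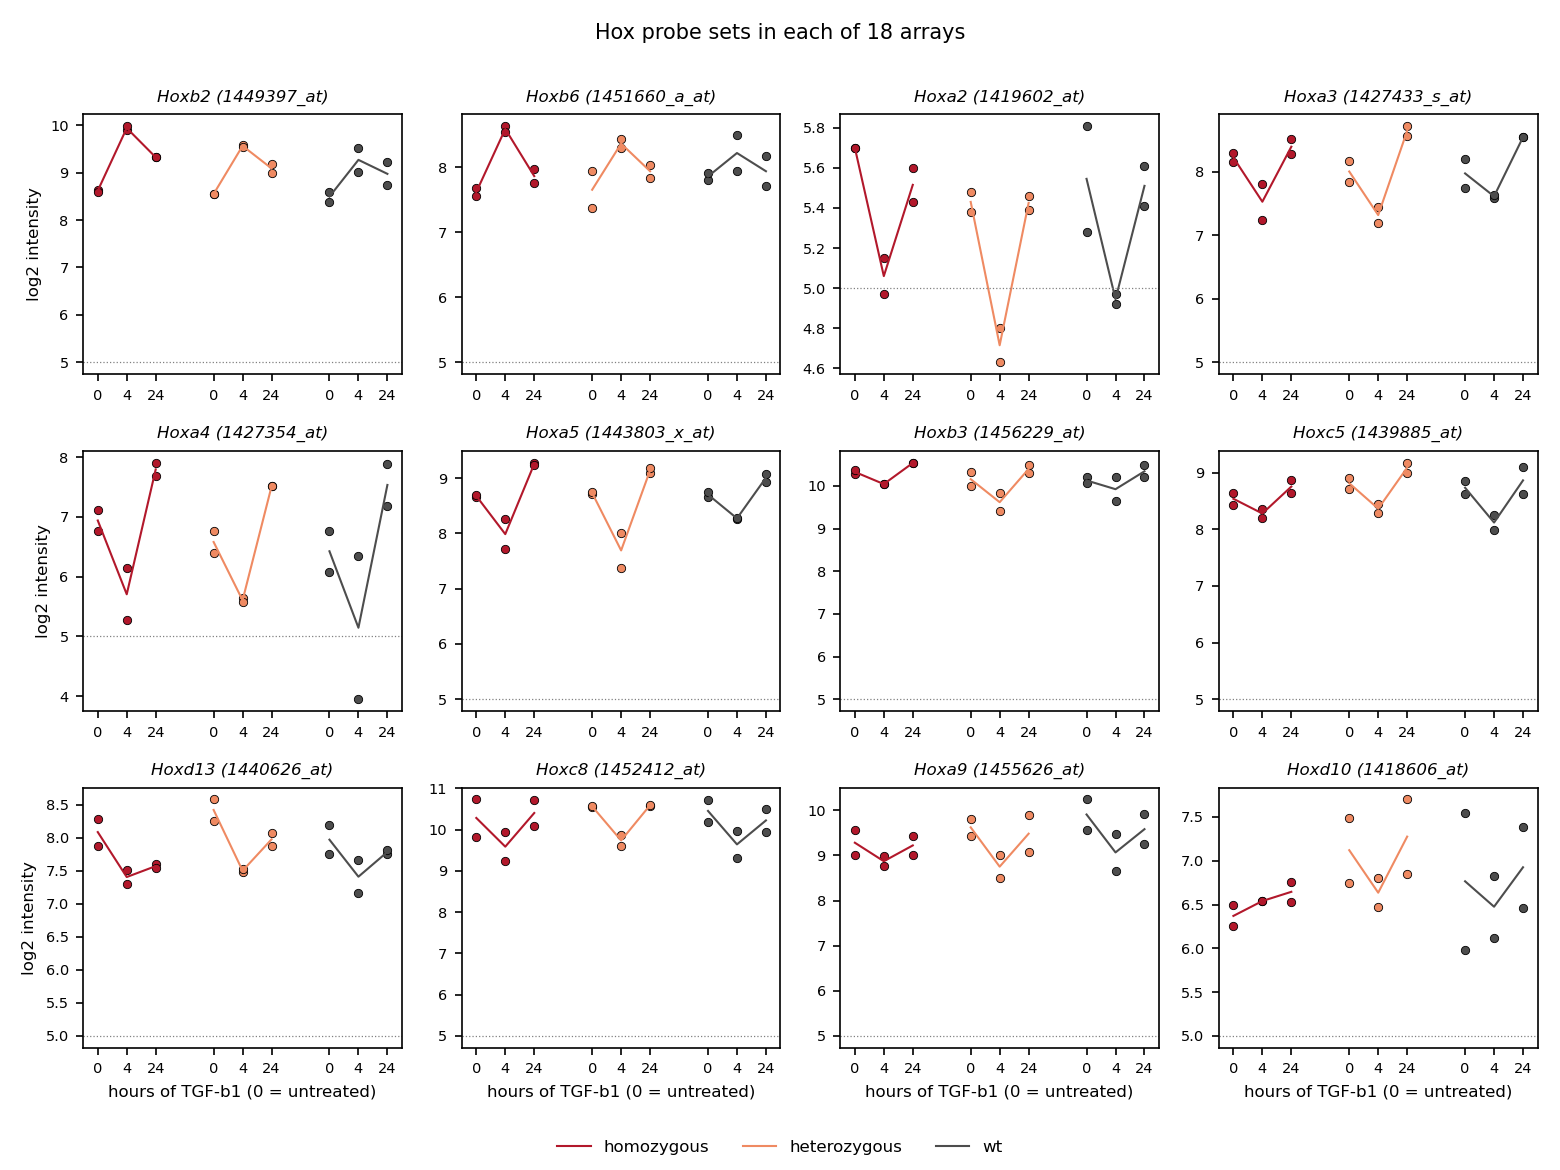
Log2 intensity (y axes, each with its own range) of 12 Hox probe sets in all 18 arrays, by hours of TGF-b1 (x axes, 0 = untreated) within homozygous, heterozygous and wt cells. Each point is 1 array, lines join the means of 2 arrays, and the dotted line marks log2 5; Hoxb2 and Hoxb6 are highest and Hoxa2 to Hoxa5 lowest at 4 h in each genotype.

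Between 4 h and 24 h, Hoxa3, Hoxa4 and Hoxa5 rose in all 3 genotypes and Hoxb2 and Hoxb6 fell in homozygous cells. Hoxb2 and Hoxb6 also differed downward in heterozygous (-0.47 and -0.43 log2) and wt cells (-0.29 and -0.28), without passing. The comparison of 24 h with 4 h, chosen once the time course had been seen, called 7 of 32 Hox probe sets higher and 2 lower in homozygous, 10 and 0 in heterozygous and 10 and 0 in wt cells. Over all probe sets 33.3% were called in homozygous (14.4% higher, 18.9% lower), 29.1% in heterozygous (14.1% and 15%) and 32.5% in wt cells (16.7% and 15.7%), near the Hox shares of 28.1%, 31.2% and 31.2% in total. It shares the 4 h arrays with the comparison against untreated cells, so the 2 comparisons are not independent. The median Hox change was 0.29, 0.46 and 0.43 log2, and over all probe sets -0.03, -0.01 and 0.01. Both probe sets of Hoxa3, both of Hoxa5 and that of Hoxa4 were called higher in all 3 genotypes, 5 of 32, against 1649 of the 18958 probe sets tested (1895 were called lower in all 3).

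Hoxa5 (1443803_x_at) had 9.28 and 9.23 at 24 h, against 7.72 and 8.25 at 4 h in homozygous cells (1.27 ± 0.19, limma adjusted p = 0.000539). It had 9.09 and 9.19, against 8.0 and 7.38 in heterozygous cells (1.45 ± 0.19, 0.000303), and 9.08 and 8.93, against 8.26 and 8.28 in wt cells (0.74 ± 0.19, 0.0119). All 6 arrays at 24 h also lay above all 6 untreated arrays on this probe set, although no genotype passed against untreated cells (0.58 ± 0.19, 0.41 ± 0.19 and 0.31 ± 0.19). Separation of that kind held for 3 of 32 Hox probe sets (9.38%, against 5.53% of all probe sets), those of Hoxb2, Hoxa4 and Hoxa5, and 0 of 32 had all 6 arrays at 24 h below (6.24% of all). On 1448926_at Hoxa5 rose between 4 h and 24 h by 0.96, 1.33 and 1.05 (0.00502, 0.000946 and 0.00369). On this brighter probe set the 24 h arrays overlapped the untreated ones (lowest 10.01 at 24 h, highest 10.26 untreated).

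Hoxa4 had 7.68 and 7.91 at 24 h, against 5.27 and 6.14 at 4 h in homozygous cells (2.09 ± 0.57, limma adjusted p = 0.0146), and 7.51 and 7.51, against 5.64 and 5.57 in heterozygous cells (1.90 ± 0.57, 0.0251). In wt cells it had 7.88 and 7.19, against 6.34 and 3.95 (2.39 ± 0.57, 0.0081), with an uncertain size since 1 array at 4 h lay under log2 5. Leaving out that array (wt 4 h replicate 2) or wt 24 h replicate 1 ended the wt call, whose change ran from 1.19 to 3.59 over the alternatives (adjusted p up to 0.179). Homozygous 4 h replicate 1 or either 24 h array, and any of the 4 heterozygous arrays, ended their calls too (up to 0.121 and 0.0979). Against untreated cells the 24 h differences of 0.86, 0.93 and 1.11 did not pass (0.501, 0.517 and 0.264).

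Hoxa3 (1427433_s_at) had 8.27 and 8.51 at 24 h, against 7.24 and 7.81 at 4 h in homozygous cells (0.87 ± 0.20, limma adjusted p = 0.00652), 8.56 and 8.72, against 7.19 and 7.44 in heterozygous cells (1.33 ± 0.20, 0.000715), and 8.54 and 8.54, against 7.59 and 7.63 in wt cells (0.93 ± 0.20, 0.00529). Hoxc5 (1439885_at) rose by 0.72 ± 0.18 in heterozygous (0.00942) and 0.75 ± 0.18 in wt cells (0.00779), and on 1450832_at by 0.92 ± 0.23 in heterozygous cells (0.0109). Hoxb3 rose on 1427605_at in homozygous (0.50 ± 0.15, 0.0232) and wt cells (0.68 ± 0.15, 0.00576), and on 1456229_at in heterozygous cells (0.78 ± 0.19, 0.00863). Hoxb9, a lower thoracic gene, rose in wt cells by 0.73 ± 0.20 (0.0152), with 7.97 and 8.29 at 24 h, against 7.22 and 7.59 at 4 h. Hoxa10, a lumbar gene, rose in heterozygous cells by 1.15 ± 0.39 (0.0423), with 7.64 and 8.22 at 24 h, against 6.72 and 6.85 at 4 h, a call that 12 of 28 alternatives ended. 

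Hoxb4, a cervical gene, had 7.27 and 7.63 at 24 h (1460379_at), against 6.83 and 7.10 at 4 h in homozygous cells, 7.30 and 7.43, against 6.99 and 6.83 in heterozygous cells, and 7.64 and 7.34, against 7.23 and 6.95 in wt cells. These differences of 0.48, 0.45 and 0.39 did not pass (limma adjusted p = 0.0692, 0.094 and 0.131), although all 6 arrays at 24 h lay above all 6 at 4 h. Its dimmer probe set, 1451761_at, passed in homozygous cells (0.68 ± 0.19, 0.0188), with 1 array at 4 h under log2 5 and hence an uncertain size. Hoxd13 rose on its dimmer probe set in wt cells by at least 1.31-fold (0.0388), since both arrays at 4 h lay under log2 5, and differed on 1440626_at by 0.17, 0.47 and 0.38 without passing. Hoxa2 rose by at least 1.34-fold in heterozygous (0.0164) and 1.43-fold in wt cells (0.0405), a wt call lost in 19 of 29 alternatives. Hoxb6 fell in homozygous cells, with a difference of -0.73 ± 0.22 (0.0229).

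Of these calls between 4 h and 24 h, those of both Hoxa5 probe sets in homozygous and heterozygous cells and of Hoxa3 (1427433_s_at) in heterozygous cells held under all alternatives tried (adjusted p up to 0.0088 and 0.0152 on 1443803_x_at, 0.0469 and 0.0137 on 1448926_at, and 0.00948 for Hoxa3). The wt call of Hoxa5 on 1443803_x_at ended without 4 h replicate 2 or 24 h replicate 1 (up to 0.112), and the homozygous one of Hoxa3 without 4 h replicate 1 or 24 h replicate 2 (up to 0.0813). In heterozygous cells, leaving out 4 h replicate 2 or 24 h replicate 1 ended the calls of Hoxc5 on 1439885_at, Hoxb3 and Hoxa2 (up to 0.0742, 0.0807 and 0.0866), and leaving out 4 h or 24 h replicate 1 that of Hoxc5 on 1450832_at (up to 0.107). Wt 24 h replicate 2 was needed for the wt calls of Hoxb3, Hoxc5 and Hoxb9 (up to 0.149, 0.154 and 0.178), and 4 h replicate 1 also for that of Hoxb9. Homozygous 4 h replicate 1 and 24 h replicate 2 were each needed for the calls of Hoxb3, Hoxb4 and Hoxb6 in those cells (up to 0.151, 0.165 and 0.133). The calls on the second probe set of Hoxa3 ended in 13, 3 and 17 of 28 alternatives in homozygous, heterozygous and wt cells, and that of Hoxd13 in 12 of 28.

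With the same block, the calls at 24 h against 4 h were 13 higher and 3 lower in homozygous, 16 higher and 1 lower in heterozygous and 16 and 0 in wt cells (41%, 36.8% and 40.7% of all probe sets), again with every call of the fit without pairing. Hoxc8 and Hoxa9 rose in all 3 genotypes (0.000237, 0.000199 and 0.00193 for Hoxc8, 0.0451, 0.00177 and 0.00944 for Hoxa9), as did Hoxb4 on 1460379_at (0.022, 0.0322 and 0.0497), and Hoxd13 on 1440626_at did so in heterozygous cells (0.0267). The probe set called lower in heterozygous cells was that of Hoxb2 (limma adjusted p = 0.0384). At 24 h against untreated cells the calls were 1 higher and 1 lower in homozygous, 3 higher and 0 lower in heterozygous and 1 and 1 in wt cells (11.6%, 9.33% and 15.5% of all probe sets), where Hoxa3 on 1427433_s_at was higher in heterozygous and wt cells (0.0235 and 0.0288) and Hoxd13 on 1440626_at lower in homozygous cells (0.0426).

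In the fit without pairing, 12 of the 24 genes were not called in any of the 9 comparisons over time, on 14 probe sets. Hoxc4 and Hoxc8 came nearest to the threshold, with lowest adjusted p-values of 0.0566 and 0.0766. Hoxc8 differed by -0.70, -0.83 and -0.81 at 4 h against untreated cells (limma adjusted p = 0.131, 0.0914 and 0.119). Hoxa9, a gene of the lumbar level and of blood progenitors, ranged from 8.50 to 10.24 log2 over 18 arrays, and its 4 h differences were -0.41, -0.87 and -0.84 (0.417, 0.0973 and 0.129). Hoxa11, a gene of the forearm and uterus, ranged from 6.56 to 8.20, Hoxc10 from 7.54 to 8.73 and Hoxd10, both genes of the lumbar level, from 5.98 to 7.70. Hoxa7, a thoracic gene, ranged from 4.92 to 6.95, Hoxc9 from 5.04 to 6.86 and Hoxd9 from 5.42 to 7.01, all near the filter in some arrays. Hoxb5 and Hoxc4, of the neck and shoulder level, ranged from 6.30 to 7.31 and 7.31 to 8.39. Hoxc6 and Hoxd8 were each measured by a pair of probe sets, whose differences over the 9 comparisons stayed between -0.50 and 0.40 for Hoxc6 and between -0.39 and 0.21 for Hoxd8.

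By paralogue number, 11 of 32 Hox probe sets had all 6 arrays at 24 h above all 6 at 4 h (34.4%, against 17% of all probe sets), and 0 had all 6 below (17.7% of all). The 11 belong to Hoxa2, Hoxa3, Hoxa4, Hoxa5, Hoxb3, Hoxb4, Hoxc4 and Hoxc5, all of number 5 or lower. For Hoxa3 on 1452421_at and Hoxb3 on 1456229_at the gap was under 0.01 log2. Hoxc8, of number 8, narrowly missed this separation, with its lowest 24 h array at 9.95 and its highest 4 h array at 9.97. Dividing the genes after number 5 was decided with these values in view, and no test was made. Of 15 probe sets of numbers up to 5, 14 differed upward from untreated cells at 24 h in homozygous, 14 in heterozygous and 13 in wt cells, with medians of 0.22, 0.34 and 0.17 log2. Of 17 of number 6 or higher, 7, 8 and 6 did, with medians of -0.06, 0.0 and -0.15. Over 24 genes the correlation of the 24 h difference with the paralogue number was r = -0.52 in homozygous, -0.68 in heterozygous and -0.49 in wt cells (Spearman -0.38, -0.63 and -0.52), a description over genes that share arrays. At 4 h the same r was -0.08, -0.32 and -0.17. For 24 h against 4 h it was -0.19, -0.09 and -0.20. In that comparison 11, 14 and 13 of the 17 probe sets of number 6 or higher also differed upward, beside 14, 14 and 14 of 15.

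Few of the 32 Hox probe sets were called between genotypes, at shares near or below those of all probe sets. Of the 32, 0 were called between untreated homozygous and wt cells (0.744% of all probe sets), untreated heterozygous and wt cells (0.586%) or untreated homozygous and heterozygous cells (0%), and limma counted 2, 2 and 0 at an unadjusted p under 0.05. The unadjusted counts, here and below, have no share of all probe sets to be set against. Over the 3 treatment states, Hoxb2 was 0.38 ± 0.10 higher (limma adjusted p = 0.0358) and Hoxb3 on 1427605_at 0.31 ± 0.09 higher (0.0496) in homozygous than in wt cells, 2 of 32 with 7.88% of all probe sets called. Every comparison over the 3 states counts the arrays of a genotype as independent. Arrays of the same genotype and replicate number may come from the same culture, so these errors and p-values may not measure the spread between cultures. The Hoxb2 call ended in 15 of 29 alternatives (adjusted p up to 0.23) and the Hoxb3 call in 23 of 28 (up to 0.24), a replicate block within genotype and leaving out any homozygous array or wt untreated replicate 1 among both. Between heterozygous and wt cells over the 3 states 0 were called (4.38% of all), with 4 at an unadjusted p under 0.05. In the 4 interactions of genotype with treatment, limma called 0 Hox probe sets and 0% of all, and at an unadjusted p under 0.05 it counted 1 in each mutant at 4 h and 0 in each at 24 h. Their errors reach 0.80 log2 for Hoxa4, so the missing calls do not show that the genotypes respond alike.

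Macrophage and blood markers moved with genotype. Of 15, 12 were measured and all 12 were higher in both mutants than in wt cells over the 3 states, with a summed linear intensity of 9280 to 16500 in homozygous, 13400 to 25100 in heterozygous and 1230 to 7830 in wt arrays. Of all probe sets, 7.88% were called between homozygous and wt cells and 4.38% between heterozygous and wt cells over the 3 states. The red cell genes Hbb-b1 and Hba-a1 lay under the filter. Skeletal muscle markers moved the other way: of 10, 6 were measured, and 5 were lower in homozygous and 2 in heterozygous than in wt cells. Their summed linear intensity was 1270 to 2570 in homozygous, 1260 to 3310 in heterozygous and 2450 to 7550 in wt arrays, and Myod1, Myf5, Tnnt1 and Tnnt3 lay under the filter. The part of these cells in the Hox differences between genotypes was not tested.

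Among untreated cells, where 0 Hox probe sets passed, the 3 genotype differences varied in their relation to paralogue number. The difference was above 0 for 11 of 15 probe sets of number 5 or lower and 3 of 17 of number 6 or higher for homozygous minus heterozygous cells (medians 0.20 and -0.28 log2, r = -0.67 over 24 genes). For homozygous minus wt cells the counts were 8 and 4 (medians 0.13 and -0.25, r = -0.45), and for heterozygous minus wt cells 9 and 8 (medians 0.03 and -0.04, r = 0.19). These differences share arrays.

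The 2 arrays of a group differed in Hox genes, and often in the same direction at all 3 times. Xist, the RNA of the inactive X chromosome, was high in homozygous replicate 1 (11.34 to 11.88 log2) and low in replicate 2 (1.58 to 2.68) at all 3 times, and it was high in all 6 heterozygous arrays. In wt cells it was high in untreated replicate 1 (11.64) but in replicate 2 at 4 h (11.27) and 24 h (11.50). For the values that follow, the untreated wt numbers were therefore exchanged, a choice made with the data in view. In homozygous cells 20 of 32 Hox probe sets kept the sign of replicate 2 minus replicate 1 at all 3 times (62.5%, against 37.1% of all probe sets), in heterozygous cells 18 (56.2%, against 38.1%) and in wt cells 15 (46.9%, against 38.2%), shares that have no test.

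In homozygous cells, Hoxc8 differed by -0.90, -0.70 and -0.64 log2 (replicate 2 minus replicate 1, untreated, 4 h and 24 h) and Hoxa7 by -0.87, -0.59 and -0.56. In heterozygous cells replicate 2 was the higher array of several genes, where Hoxa7 differed by 0.77, 0.77 and 0.42, Hoxa11 by 0.74, 0.20 and 0.88 and Hoxd10 by 0.74, 0.33 and 0.84. In wt cells Hoxd10 differed by -1.57, -0.71 and -0.94 and Hoxa10 by -1.21, -0.74 and -0.75, whereas Hoxc8 differed by 0.52, 0.66 and 0.54. Hoxa9 and Hoxa10 were higher in replicate 2 of heterozygous pairs and lower in replicate 2 of homozygous and wt pairs. Several of these differences are as large as the called responses to TGF-b1, and they enter the error of every comparison.

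**Figure D3:**
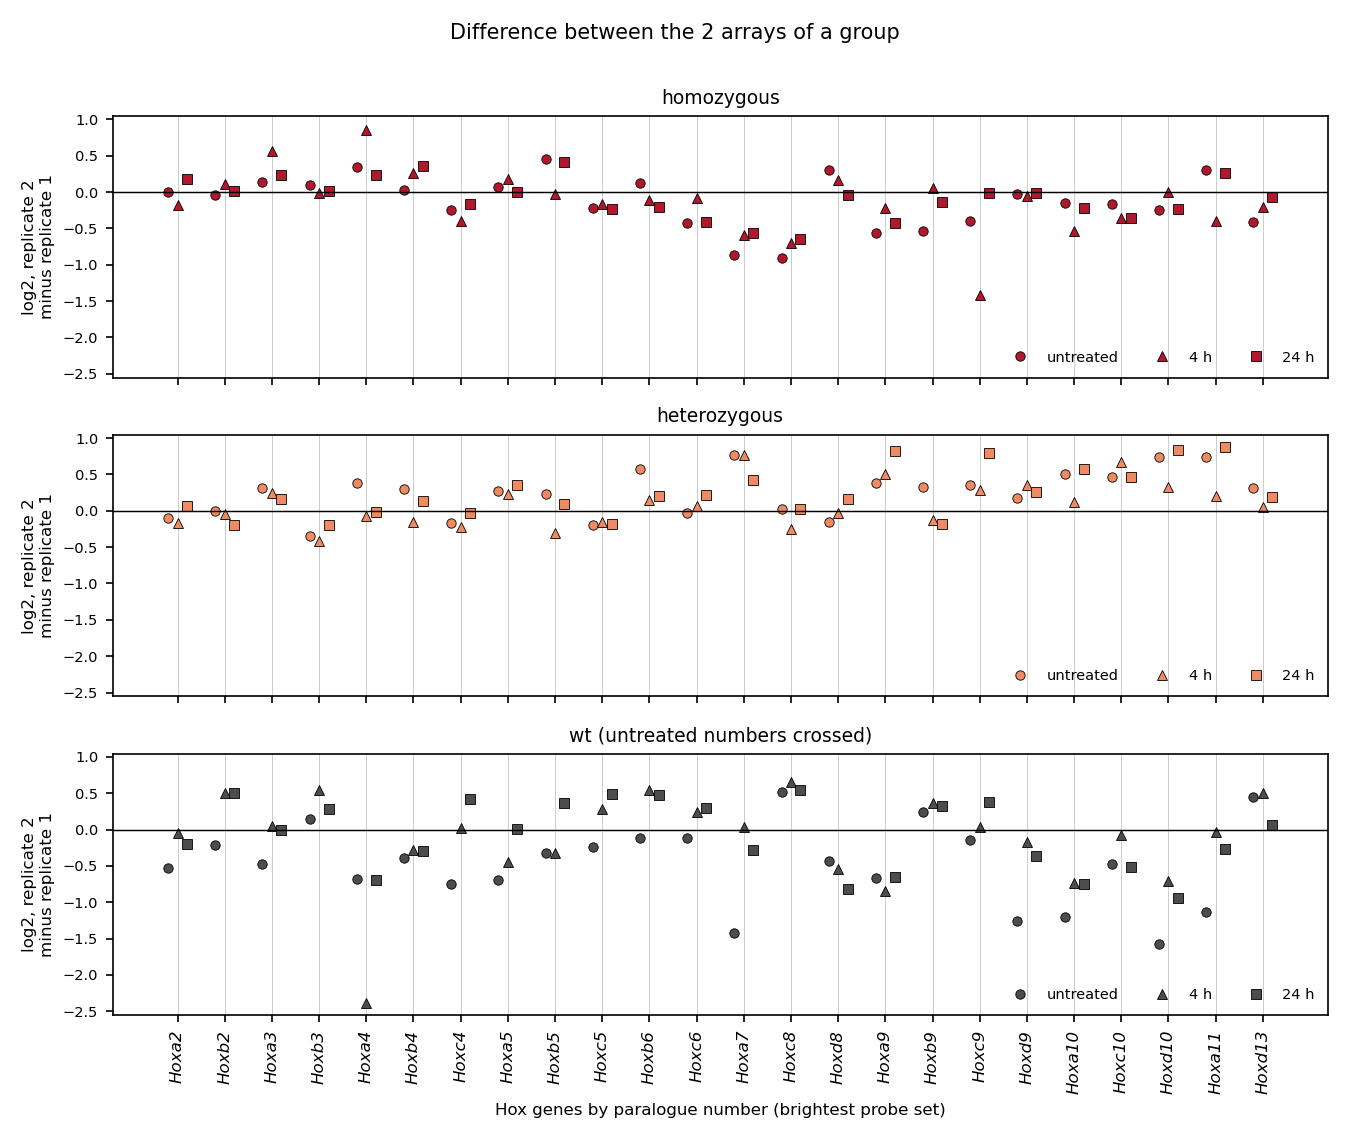
Difference of replicate 2 minus replicate 1 (log2, y axes) for the brightest probe set of 24 Hox genes in order of paralogue number (x axis), in homozygous, heterozygous and wt cells, with the untreated wt numbers exchanged. Circles are untreated, triangles 4 h and squares 24 h; the 3 marks of Hoxa7 and Hoxc8 lie below 0 in homozygous pairs, and those of Hoxa10 and Hoxd10 lie above 0 in heterozygous and below 0 in wt pairs.

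Hox proteins bind DNA together with TALE homeodomain cofactors, the Pbx, Meis and Pknox proteins. Of 9 such genes 7 were measured, and at 4 h the counts of genes called higher and lower were 0 and 2 in homozygous, 0 and 2 in heterozygous and 0 and 2 in wt cells. Of all probe sets 35%, 26.5% and 17.1% were called at 4 h, and a difference from these shares was not tested. Meis1 had 8.36 and 8.41 after 4 h, against 9.17 and 9.52 untreated in homozygous cells (-0.96 ± 0.16, limma adjusted p = 0.000846), 8.55 and 8.34, against 9.45 and 9.08 in heterozygous cells (-0.82 ± 0.16, 0.00308), and 8.62 and 8.37, against 9.50 and 9.31 in wt cells (-0.91 ± 0.16, 0.00283). Meis2 had 8.33 and 8.52, against 9.72 and 9.60 in homozygous cells (-1.23 ± 0.17, 0.000232), 7.88 and 8.13, against 9.58 and 9.39 in heterozygous cells (-1.48 ± 0.17, 9.24e-05), and 8.24 and 8.81, against 9.86 and 9.81 in wt cells (-1.30 ± 0.17, 0.000365). Both rose again from 4 h to 24 h, Meis1 by 0.53, 0.64 and 0.55 and Meis2 by 1.0, 1.08 and 0.60. Pknox2 rose late, by 0.95 ± 0.21, 1.28 ± 0.21 and 1.59 ± 0.21 at 24 h against untreated cells (0.0176, 0.00375 and 0.000679).

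Retinoic acid acts on Hox clusters through nuclear receptors, and Rarb is both a receptor and a target of the signal. Of 23 genes listed as acting upstream of Hox clusters in the embryo 9 were measured, and at 4 h the counts of genes called higher and lower were 1 and 2 in homozygous, 2 and 3 in heterozygous and 1 and 2 in wt cells. At 24 h 3 were higher and 0 lower in each genotype. Over all probe sets 35%, 26.5% and 17.1% were called at 4 h, and 6.44%, 5.07% and 9.14% at 24 h, in homozygous, heterozygous and wt cells. A difference of the list from these shares was not tested. Rarb lay under log2 5 in every array at 4 h, at 6.30 and 5.93 in untreated homozygous, 6.04 and 5.68 in untreated heterozygous and 5.15 and 5.02 in untreated wt cells, and at 7.39 and 7.40 at 24 h in homozygous, 7.77 and 7.72 in heterozygous and 7.06 and 7.29 in wt cells. That is at least 5.27-fold, 6.71-fold and 4.51-fold above 4 h (limma adjusted p = 7.8e-06, 8.2e-07 and 1.97e-06). Rarg, another receptor, differed at 4 h by -0.84, -0.69 and -0.46 (0.000422, 0.00206 and 0.0259), and Aldh1a2, which makes retinoic acid, was higher at 24 h by 1.61 ± 0.26, 1.77 ± 0.26 and 2.16 ± 0.26 (0.00284, 0.00182 and 0.000348). Retinoic acid was not measured, and the part of these genes in the Hox values was not tested.

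**Figure D4:**
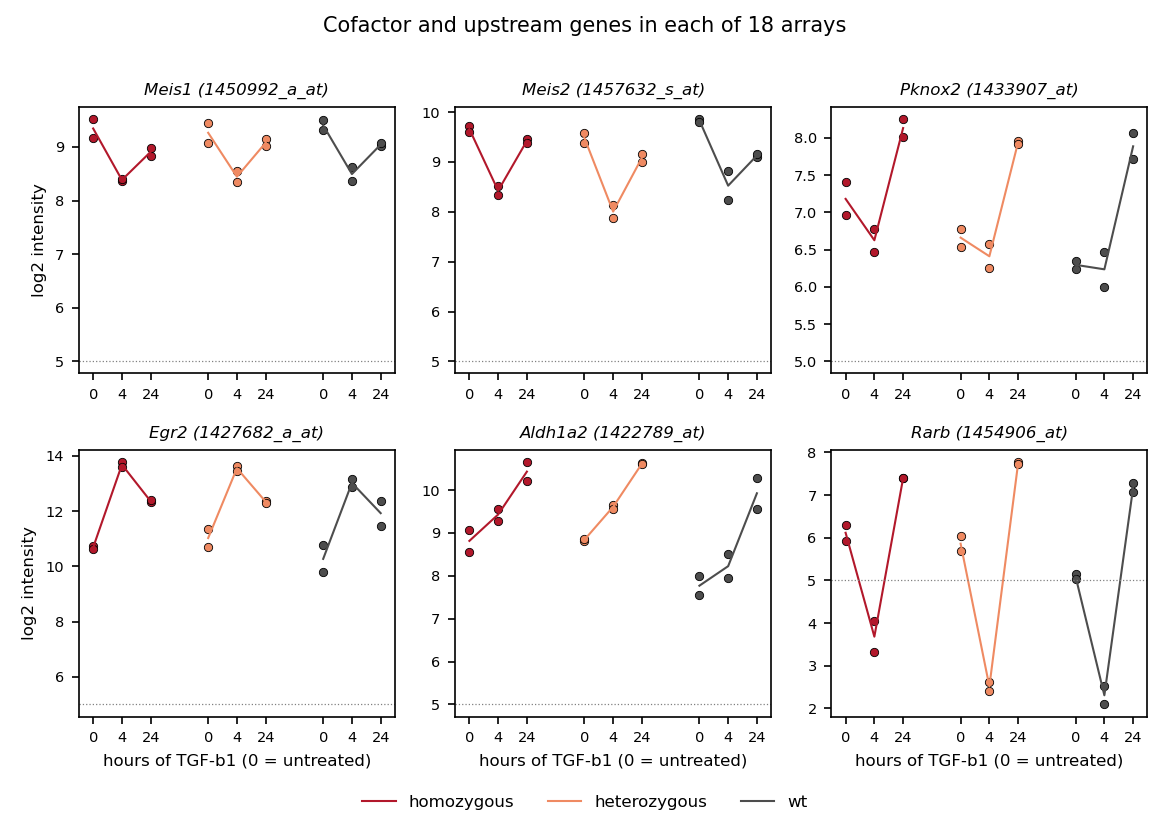
Log2 intensity (y axes, each with its own range) of 3 Hox cofactor genes (Meis1, Meis2, Pknox2) and 3 genes known to act upstream of Hox clusters (Egr2, Aldh1a2, Rarb) in all 18 arrays, by hours of TGF-b1 (x axes, 0 = untreated) within homozygous, heterozygous and wt cells. Points are arrays, lines join means and the dotted line marks log2 5; Meis1, Meis2 and Rarb are lowest and Egr2 highest at 4 h, and Pknox2 and Aldh1a2 are highest at 24 h.

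Polycomb proteins keep Hox clusters silent, and trithorax proteins and the insulator protein CTCF keep parts of them active or apart. Of 31 Polycomb genes 27 were measured, and at 4 h the counts of genes called higher and lower were 5 and 7 in homozygous, 5 and 3 in heterozygous and 4 and 3 in wt cells (of all probe sets 35%, 26.5% and 17.1% were called), with medians of -0.03, -0.08 and -0.03 log2 beside 0.03, 0.02 and -0.03 over all genes. Bmi1, a subunit of Polycomb complex 1, differed by -0.71 ± 0.10, -0.60 ± 0.10 and -0.67 ± 0.10 (limma adjusted p = 0.000311, 0.00132 and 0.00108), and Cbx6, a chromobox subunit, by -1.16 ± 0.24, -1.03 ± 0.24 and -1.09 ± 0.24 (0.00317, 0.00829 and 0.00998). Pcgf1, a subunit of a variant complex, rose by 1.12 ± 0.20, 1.03 ± 0.20 and 0.84 ± 0.20 (0.00142, 0.00332 and 0.016). Of 21 trithorax, demethylase and insulator genes 20 were measured, and at 4 h the counts of genes called higher and lower were 1 and 6 in homozygous, 1 and 4 in heterozygous and 2 and 6 in wt cells, beside the same overall shares of 35%, 26.5% and 17.1%. Of 27 other genes inside or beside the clusters 7 were measured, and at 4 h the counts of genes called higher and lower were 0 and 1 in homozygous, 0 and 0 in heterozygous and 0 and 1 in wt cells.

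Of 39 other homeobox genes of trunk and limb mesenchyme 20 were measured, and at 4 h the counts of genes called higher and lower were 2 and 9 in homozygous, 2 and 8 in heterozygous and 1 and 6 in wt cells, with medians of -0.39, -0.46 and -0.26 log2, where 35%, 26.5% and 17.1% of all probe sets were called. A difference of these shares from the overall ones was not tested. At 24 h the counts of genes called higher and lower were 1 and 1 in homozygous, 1 and 2 in heterozygous and 1 and 3 in wt cells. Of all probe sets 6.44%, 5.07% and 9.14% were called at that time. Of 24 limb level and axis markers 15 were measured, and at 4 h the counts of genes called higher and lower were 2 and 8 in homozygous, 2 and 7 in heterozygous and 1 and 4 in wt cells. Prrx1, a homeobox gene of limb and face mesenchyme, had 11.47 and 11.57 after 4 h, against 12.78 and 12.74 untreated in homozygous cells, 11.51 and 11.72, against 12.86 and 12.68 in heterozygous cells, and 11.73 and 12.01, against 12.72 and 12.73 in wt cells. It was still lower at 24 h, with differences of -0.92 ± 0.11, -0.84 ± 0.11 and -0.75 ± 0.11 log2 in homozygous, heterozygous and wt cells (limma adjusted p = 0.00038, 0.000711 and 0.00122), whereas 0 Hox probe sets were called lower at that time without a replicate block.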

How the data were processed

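RNA was measured on 18 Affymetrix mouse arrays. The deposited values are linear intensities for each probe set that the authors made with GCRMA, per the submitters' processing notes, with no version; scan dates, and hence batches, were not used here. Intensities were converted to log2 and not normalized again. Of 45101 probe sets, 64 controls and those with fewer than 2 arrays at log2 5 or more were left out. Limma 3.58.1 in R 4.3.3 fitted 1 mean per group to all 18 arrays (9 residual degrees of freedom, eBayes with an intensity trend, two-sided tests), with Benjamini-Hochberg adjustment over 18958 probe sets. A fold is a bound against log2 5 if that is above both arrays of 1 group. Lists count a gene by its brightest probe set. GCRMA values of probe sets marked _s_at or _x_at can include signal of related genes. Genes are named if called, or if their arrays do not overlap between states. The code was tested on simulated data. The number of arrays limits precision. Alternatives were the filter, normalization, an offset of 16, probe set choice, array weights, trend, groups fitted, replicate blocks and each array left out. Some listed genes are not reported here. Members and lists were chosen with earlier results of these data known.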

Additional observations from a re-analysis of the deposited data

Results flagged for a closer look

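A probe set annotated to both Hoxb7 and Hoxb8, which was used for neither gene, reached 8.47 log2 in wt 24 h replicate 2 and 4.72 in the other array of that group. It drew attention as a signal outside the probe sets analysed. It also had 7.26 in heterozygous 4 h replicate 1 and 4.66 in replicate 2, 5.66 in untreated heterozygous replicate 2 and 5.32 in wt 4 h replicate 2. Each high value stood in 1 array of its group. The probe set of Hoxb7 alone stayed between 2.13 and 2.20 in all 18 arrays.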

How the results depend on the processing

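Of the 50 calls on single Hox probe sets, 0 changed direction under any alternative. Without a filter the counts of called Hox probe sets were 4 at 4 h in heterozygous cells, 0 at 24 h in homozygous cells and 0 for homozygous against wt cells over the 3 states. Quantile normalization, an offset of 16, only the groups compared and the brightest probe set per gene each gave 1 for homozygous against wt cells, and the brightest probe sets gave 6 for wt cells at 24 h against 4 h. Without probe sets marked _s_at, _x_at or _a_at the 4 h counts were 5 in heterozygous and 4 in homozygous cells, with fewer probe sets tested. Array weights gave 0 at 4 h in wt cells, 4 in heterozygous and 6 in homozygous cells at 24 h, 0 for homozygous against wt cells, and 15 in homozygous and 2 in wt cells for 24 h against 4 h. With only the groups compared, the counts were 0 at 4 h in wt cells, 4 at 24 h in homozygous cells and 0 for wt cells at 24 h against 4 h. No cause was tested for these shifts.

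The numbers of replicates do not pair samples over all groups: of 36 correlations between the replicate differences of groups 10 were above 0.1 (-0.58 to 0.61), and within genotype 7 of 9 were. A replicate block over all groups gave 1 in heterozygous and 1 in wt cells at 24 h. A replicate block within genotype gave 5 at 4 h in wt cells, 2 in heterozygous and 2 in wt cells at 24 h, and 0 for homozygous against wt cells. The crossed pairing of untreated wt arrays, added with the data in view, gave 11, 14 and 11 at 4 h, 2, 3 and 2 at 24 h and 16, 17 and 16 at 24 h against 4 h (homozygous, heterozygous and wt cells), and 0 for homozygous against wt cells.

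Leaving out 1 array gave 2 to 9 calls in homozygous, 3 to 10 in heterozygous and 2 to 4 in wt cells at 4 h, and 0 to 2, 0 to 1 and 0 to 2 at 24 h. At 24 h against 4 h it gave 2 to 11, 3 to 12 and 4 to 11. It gave 0 to 4 for homozygous and 0 to 1 for heterozygous against wt cells over the 3 states, 0 to 2 and 0 to 1 among untreated cells, and 0 to 1 for the interactions. At 4 h each of the 4 arrays compared moved the count by over 1.5 times, to 2, 3, 2 and 4 in homozygous cells (untreated replicates 1 and 2, 4 h replicates 1 and 2) and to 4, 3, 5 and 4 in heterozygous cells. At 24 h against 4 h the counts fell to 3, 5 and 2 without homozygous 4 h replicate 1, 24 h replicate 1 and 24 h replicate 2, to 4 and 3 without heterozygous 4 h replicate 2 and 24 h replicate 1, and to 6, 6 and 4 without wt 4 h replicate 2, 24 h replicate 1 and 24 h replicate 2. The upper values among untreated cells and in the interactions came without wt untreated replicate 1. Dim probe sets such as that of Hoxa2 lie near log2 5, where a change is measured only as a bound.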
